A study of Rattus norvegicus with 49 samples.

Results

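The comparison described here is that of group 4, rats given 30% less food, killed after 14 days of the diet against rats killed after 4 days. All 10 arrays whose labels gave group 4 were used, 5 from each day, out of 49 arrays in the series. Each array held RNA of the whole liver of 1 male Sprague-Dawley rat of 8 to 10 weeks and 250 to 350 g, with an animal number of its own. Powdered feed was cut to 70% of what the unrestricted rats ate, and the rats of group 4 were fasted overnight before the liver was taken. The rats of group 2 had unrestricted food and the same overnight fast, those of group 3 had 15% less food and those of group 5 had 60% less food, both with the fast, and those of group 1 had unrestricted food and no fast. Each of these groups had 5 rats per day, except group 1 at day 14 with 4. The time of day at which the livers were taken was not given in the sources used here. Within group 4 the diet, the age of the rats and any batch of killing or processing changed together with the day, and these cannot be told apart. The day difference of group 2, whose rats aged over the same days without restriction, is therefore given beside the genes described by rat.

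The liver stores and releases glucose, makes fatty acids and cholesterol, and switches between these tasks with feeding and fasting. Insulin and glucose drive lipid synthesis after a meal through the transcription factors SREBP-1c and ChREBP, whereas sterol shortage activates SREBP-2 and the genes of cholesterol synthesis and uptake. Fasting raises glucagon and glucocorticoids, and PPARα turns on fatty acid oxidation. In animals that receive a limited ration the time of the meal also resets the liver clock, and many genes of lipid and glucose metabolism follow that clock.

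Of 14217 genes measured, 778 differed between day 14 and day 4 in group 4 at an adjusted p under 0.1 (limma, 2-sided, 5 rats against 5), which is 5.47% of the genes. Expression was higher at day 14 for 517 of them (3.64%) and lower for 261 (1.84%). In group 2 the same test called 1 gene, or 0.00703%, namely the junction protein gene Jam3. At an unadjusted p under 0.05 there were 2412 genes in group 4 and 1230 in group 2. The split by direction depended on scaling, with 403 higher and 382 lower genes after the arrays were quantile normalised again and 439 higher and 338 lower after each array was centred on its median. The change was at least 1.5-fold for 190 called genes and at least 2-fold for 55. In group 4, the 5 day 14 rats all lay above the 5 day 4 rats for 443 genes (3.12%) and all below for 215 (1.51%), against 151 (1.06%) and 68 (0.478%) in group 2. Among the called genes these were 317 above and 165 below. The first principal component of the 10 rats held 29.4% of the spread and parted the days, at 8.65 to 15.8 for day 14 and -22.0 to -4.98 for day 4. Leaving out 1 rat at a time gave 329 to 796 calls, with the fewest without day 4 rat 1, 443 without day 14 rat 4, 446 without day 14 rat 1, 468 without day 4 rat 4 and 487 without day 14 rat 3. In all 10 of these fits 290 of the genes were called.

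**Figure D1:**
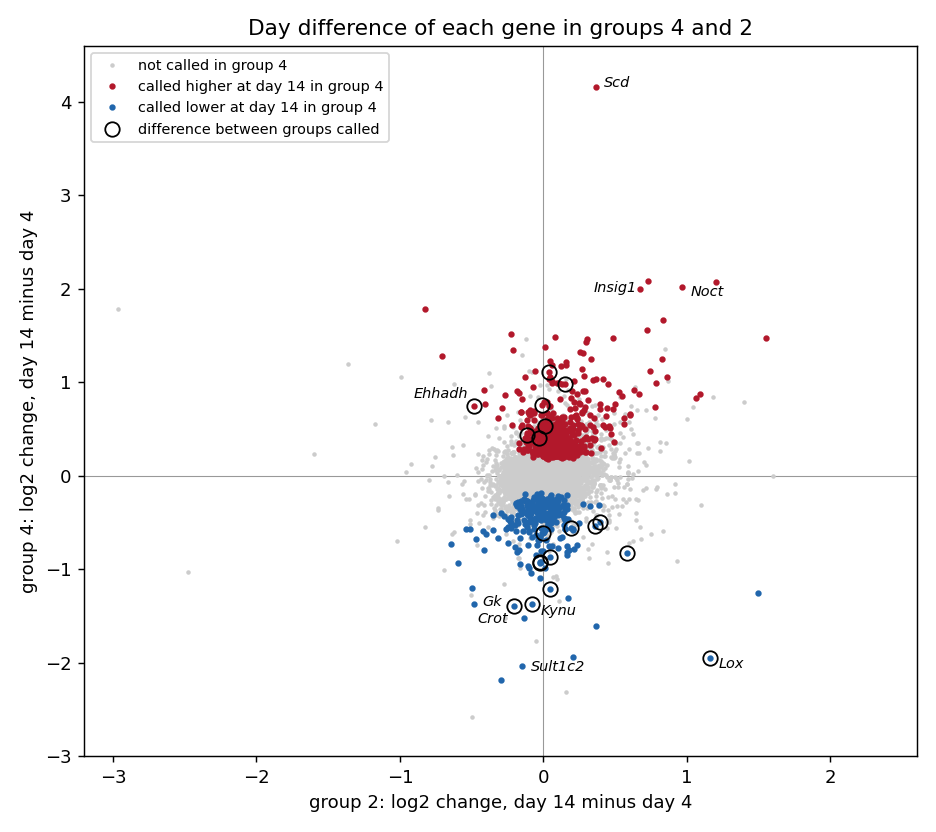
Log2 change of each of 14217 genes between day 14 and day 4 in group 4 (vertical axis) against the same difference in group 2 (horizontal axis). Red and blue points were called higher or lower in group 4, and rings mark the 19 genes whose day differences differed between the groups. The called genes spread along the vertical axis, with Scd at 4.16 in group 4 and 0.36 in group 2.

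Markers of the labelled tissue were among the highest genes, with 11 hepatocyte genes between the 97.4th and the 100th percentile of all genes by mean level. Their summed intensity was 193034 to 200031 at day 14 and 192691 to 205135 at day 4. No marker of Kupffer cells, T and NK cells, B cells, endothelial cells or cholangiocytes was called. Of 5 neutrophil markers, S100a9 was called lower at -0.57 (adjusted p = 0.0953), beside 0.15 in group 2, and its call was lost in 7 of 10 fits without 1 rat. The summed intensity of 5 erythroid genes had a median of 5222 (3781 to 9654) at day 14 and of 11060 (8236 to 13534) at day 4. Of these genes 2 fell, the globin gene Hbb and the erythroid haem synthesis gene Alas2. Hbb made up most of each sum, and the median log2 change of the 5 genes was -0.12, beside -0.03 in group 2. A list of 10 muscle, pancreas and fat genes summed to 1316 to 1622 at day 14 and to 1798 to 2241 at day 4. Only Cela1 of the list was called, and 6 members lay under the 20th percentile of all genes. The drop of the sum lay in Cela1, at a log2 intensity of 9.19 to 9.57 at day 14 and 9.90 to 10.43 at day 4. The median log2 change of the 10 genes was -0.04. The part of these cell sources in the results below was not tested. In whole tissue, fewer cells of a type and less RNA per cell cannot be told apart.

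The largest change was that of Scd, the stearoyl-CoA desaturase that makes monounsaturated fatty acids. Its log2 intensity was 11.50, 11.70, 12.29, 12.40 and 12.38 in the day 14 rats of group 4, against 6.88, 7.07, 8.93, 8.54 and 8.03 in the day 4 rats. Every day 14 rat stood above every day 4 rat, by more than the spread within either day. The difference was 4.16 on the log2 scale (SE 0.37, adjusted p = 0.00127, limma), or 17.9-fold. In group 2, Scd stood at 7.88, 8.20, 7.38, 9.01 and 9.17 at day 14, against 11.25, 6.66, 7.14, 7.19 and 7.59 at day 4. A single unrestricted rat at day 4 stood apart from the other unrestricted rats, somewhat below the restricted rats at day 14, and the day difference was 0.36. The difference between the day differences of groups 4 and 2 was 3.80 (SE 0.90) and was not called (adjusted p = 0.140, limma).

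Of 14 genes of fatty acid synthesis, 7 rose and none fell, with a median log2 change of 0.38 in group 4 and 0.26 in group 2, against 0.00 over all genes in group 4. After Scd the largest were those of Acss2 and Acly, which supply acetyl-CoA, and of the fatty acid synthase gene Fasn. Acss2 was at 9.78, 11.72, 11.80, 10.57 and 10.91 at day 14, against 9.29, 9.54, 9.65, 9.50 and 9.48 at day 4. The day 4 rats were close together, the day 14 rats spread over a wide range above them, and the change was 1.46 (SE 0.32, adjusted p = 0.0343), beside 0.30 in group 2. Fasn was at 8.72, 9.59, 10.02, 10.22 and 9.97 at day 14, against 7.89, 8.15, 9.35, 8.03 and 8.53 at day 4. The days overlapped through day 4 rat 3, and Fasn rose by 1.31 (SE 0.31, adjusted p = 0.0495), beside 0.28 in group 2. Acly rose by 1.18 (SE 0.22, adjusted p = 0.0212), beside 0.12 in group 2. Srebf1, which encodes SREBP-1c, was not among the called genes, with a change of -0.47, beside 0.64 in group 2. The count of 7 fell to 4 without day 14 rat 3, without day 14 rat 4, without day 4 rat 1 or without day 4 rat 4.

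Cholesterol synthesis genes rose together, with 12 of 17 called higher, none lower and all 17 above 0. Their median change was 0.84 in group 4 and 0.19 in group 2. Idi1, which isomerises isopentenyl diphosphate, was at 8.27, 10.68, 10.64, 9.51 and 10.17 at day 14, against 7.60, 8.26, 8.59, 7.99 and 8.49 at day 4. Day 14 rat 1 lay within the day 4 range and the other day 14 rats lay above it, for a change of 1.67 (SE 0.40, adjusted p = 0.0522, limma). Sqle, the squalene epoxidase gene, was at 8.04, 10.43, 10.18, 9.13 and 9.73 at day 14, against 7.33, 7.97, 8.25, 7.69 and 8.48 at day 4. Again only day 14 rat 1 overlapped with day 4, and Sqle rose by 1.56 (SE 0.39, adjusted p = 0.0597). The demethylating enzymes of the sterol ring rose as well, Msmo1 by 1.43 (SE 0.34, adjusted p = 0.0530) and Cyp51 by 1.32 (SE 0.30, adjusted p = 0.0402). In group 2 the day differences were 0.84 for Idi1, 0.72 for Sqle, 0.29 for Msmo1 and 0.26 for Cyp51, none of which was called. The count was 14 without day 14 rat 1, 7 without day 14 rat 2 or rat 3, 6 without day 4 rat 1 or rat 4, and 7 in a robust fit with a trend over intensity.

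The promoters of Idi1 and Msmo1 are shown because CCAAT, the box bound by NF-Y beside many SREBP sites, was searched for in the promoters of this list. The sequences are those of RefSeq on GRCr8, from 250 bases before to 50 after the gene start, read on the strand of the gene, with each match in capitals (CCAAT, or ATTGG for a match on the other strand). Idi1 lies on the minus strand at chr17:66547475-66547774 and Msmo1 on the plus strand at chr16:29746863-29747162.
Idi1: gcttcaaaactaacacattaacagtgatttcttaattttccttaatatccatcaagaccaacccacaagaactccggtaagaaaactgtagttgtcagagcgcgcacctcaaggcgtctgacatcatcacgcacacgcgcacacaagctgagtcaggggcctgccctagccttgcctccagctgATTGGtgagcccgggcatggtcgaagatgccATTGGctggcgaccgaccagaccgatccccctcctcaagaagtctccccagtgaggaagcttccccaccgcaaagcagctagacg
Msmo1: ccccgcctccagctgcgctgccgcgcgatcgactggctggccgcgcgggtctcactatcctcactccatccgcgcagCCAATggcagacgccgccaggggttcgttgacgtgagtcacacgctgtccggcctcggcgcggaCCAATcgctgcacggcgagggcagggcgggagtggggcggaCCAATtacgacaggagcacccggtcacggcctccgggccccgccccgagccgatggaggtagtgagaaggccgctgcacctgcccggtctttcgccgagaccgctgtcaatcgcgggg
Idi1 held 2 matches and Msmo1 held 3. Among the cholesterol synthesis genes with a promoter in the table, 11 of 14 held at least 1 match (78.6%), and among those that rose 7 of 9 (77.8%), against 37.7% of all 27457 promoters. A match describes these letters and is no evidence of binding.

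Of 14 genes of sterol sensing, uptake and export, 3 rose and 1 fell, with a median of -0.08. Insig1, the sterol-regulated retention protein of the SREBP system, was at 12.12, 12.58, 12.35, 11.20 and 11.58 at day 14, against 9.27, 9.26, 11.29, 9.94 and 10.05 at day 4. Day 4 rat 3 alone reached the day 14 range, and Insig1 rose by 2.00 (SE 0.37, adjusted p = 0.0212, limma), beside 0.67 in group 2. Stard4, a sterol carrier, rose by 0.65 and Srebf2, which encodes SREBP-2, by 0.49, beside 0.43 and 0.20 in group 2, and their calls were lost in 5 and 6 of 10 fits without 1 rat. Scarb1, the HDL receptor gene, fell by 0.57 (adjusted p = 0.0242).

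**Figure D2:**
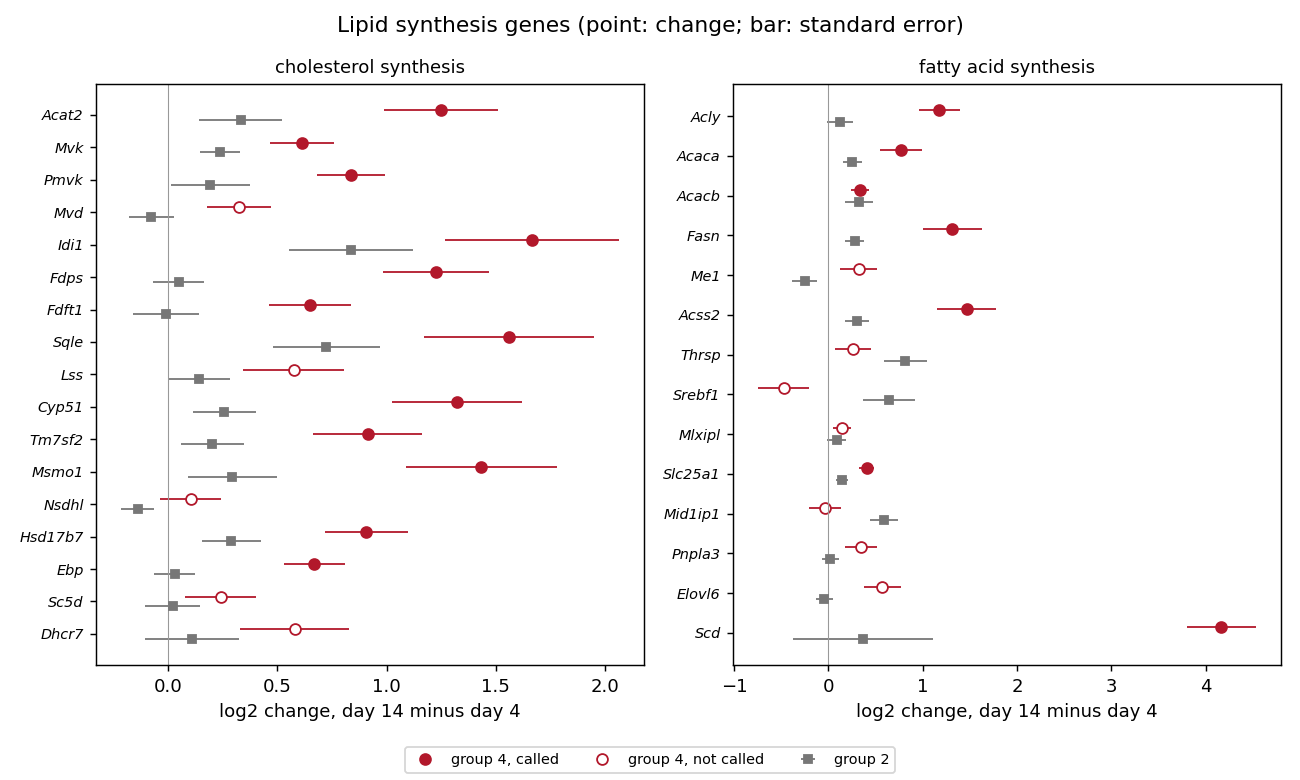
Log2 change between day 14 and day 4 (horizontal axis) for the 17 measured cholesterol synthesis genes (left) and 14 fatty acid synthesis genes (right), with 1 SE of the fit as the bar. Filled red circles were called in group 4, open ones were not, and grey squares are group 2. All 17 cholesterol genes lie to the right of 0 in group 4, and Scd lies far to the right of the other fatty acid genes.

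Genes that handle fatty acids after synthesis moved in both directions. Crot, the peroxisomal carnitine octanoyltransferase, was at 10.35, 10.55, 10.70, 9.55 and 10.81 at day 14, against 12.65, 11.34, 11.40, 12.01 and 12.18 at day 4. All day 14 rats lay below all day 4 rats, and Crot fell by 1.52 (SE 0.28, adjusted p = 0.0210, limma), against -0.14 in group 2. A further, dim probe set of Crot, at a mean of 5.65, showed 0.22 where the other 2 both showed -1.52. Ehhadh, the peroxisomal bifunctional enzyme and a PPARα target, rose by 0.75 (SE 0.18, adjusted p = 0.0532), beside -0.48 in group 2, and these were the 2 called members of 15 peroxisomal oxidation genes. Of 19 mitochondrial fatty acid oxidation genes, Echs1 rose by 0.26 and Etfdh fell by 0.47, both in every fit without 1 rat, while the call of Cpt2 (0.35, adjusted p = 0.0988) was lost in 9 of 10 such fits. The 2 elongase genes Elovl5 and Elovl2, which extend polyunsaturated fatty acids, fell by 0.74 and 0.73, while Hsd17b12 of the same list of 12 rose by 0.39. In group 2 Elovl2 had a day difference of -0.64 and Elovl5 one of -0.04. Of 25 genes of triglyceride synthesis and lipid droplets, Lpin1, which makes diacylglycerol, rose by 1.49 (adjusted p = 0.0965), the droplet proteins Cidec (0.52) and Cideb (0.28) rose, and Agpat3 fell by 0.50. Of these, the call of Lpin1 was lost in 8, that of Agpat3 in 7 and that of Cideb in 6 of 10 fits without 1 rat.

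Gk, the glycerol kinase gene that lets the liver use glycerol released from fat, fell with little scatter within the days. It stood at 10.00, 10.40, 10.37, 10.37 and 10.95 at day 14, against 12.16, 11.73, 11.62, 11.68 and 11.86 at day 4. In group 2, Gk stood at 12.06, 12.14, 12.14, 12.07 and 11.68 at day 14, against 12.24, 12.05, 12.31, 12.32 and 12.21 at day 4. The restricted rats at day 14 were thus below every other rat of both groups, with a fall of 1.39 (SE 0.15, adjusted p = 0.00236) in group 4 and -0.21 in group 2. Apoa1, the main apolipoprotein of HDL, was at 13.65, 13.35, 13.68, 13.58 and 13.43 at day 14, against 14.14, 14.24, 14.16, 14.00 and 14.25 at day 4. The days did not overlap, and Apoa1 fell by 0.62 (SE 0.08, adjusted p = 0.00401), beside 0.00 in group 2, as the only called member of 13 apolipoprotein genes. In the list of 18 bile acid genes the phospholipid exporter gene Abcb4 fell by 0.98, Hsd3b7 by 0.67 and the uptake carrier gene Slco1b2 by 0.40, while 2 genes of the list rose, of which Slc27a5 had the larger change (0.41). The call of Slc27a5 was lost in 4 and that of Slco1b2 in 2 of 10 fits without 1 rat. That of Slc27a5 was also lost in 1 of 9 processing alternatives. Angptl4, a secreted inhibitor of lipoprotein lipase, rose by 1.52 (SE 0.33, adjusted p = 0.0363), against -0.23 in group 2.

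Genes of glucose use moved in both directions. Of 20 genes of glycolysis and glucose entry, 5 rose and 2 fell. Gckr, the inhibitor protein of glucokinase, was at 8.76, 9.32, 9.68, 9.60 and 10.10 at day 14, against 11.28, 10.49, 10.91, 10.46 and 10.38 at day 4. The days did not overlap, and Gckr fell by 1.21 (SE 0.23, adjusted p = 0.0242, limma), whereas all rats of group 2 stood between 11.17 and 11.43. Pfkfb1, the bifunctional enzyme that sets fructose 2,6-bisphosphate in liver, was at 11.45, 11.26, 11.02, 11.67 and 10.71 at day 14, against 9.29, 10.37, 10.57, 10.00 and 10.27 at day 4. Here every day 14 rat was above every day 4 rat, with a rise of 1.12 (SE 0.23, adjusted p = 0.0316), beside 0.74 in group 2. Pdk1, which inhibits pyruvate dehydrogenase, rose by 0.53, and the lactate dehydrogenase gene Ldha fell by 0.53. Galt, an enzyme of galactose use, fell by 0.92 (SE 0.09, adjusted p = 0.00164) without overlap of the days, beside -0.02 in group 2.

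Among 11 glycogen genes, 3 rose, namely Ppp1r3b (0.87, adjusted p = 0.0914), which directs a phosphatase to glycogen, the branching enzyme gene Gbe1 (0.45) and the primer gene Gyg1 (0.36). Among 9 pentose phosphate and NADPH genes, 3 rose, namely Pgd (0.58), Tkt (0.55) and Taldo1 (0.24). Without 1 rat, the call of Ppp1r3b was lost in 8, that of Gbe1 in 7 and that of Taldo1 in 6 of 10 fits. Of 12 gluconeogenesis genes, Got1 (0.74, adjusted p = 0.0812) was called higher and the pyruvate carboxylase gene Pc was called lower at -0.44 (adjusted p = 0.0604). The day difference of Got1 was 0.78 in group 2, where it was not called, and its call in group 4 was lost in 9 of 10 fits without 1 rat, that of Pc in 5. The hub and other key genes of the network in the study were represented by 7 measured genes, of which Tkt rose and Gk fell. In the study Tkt is a hub, whereas Gk is named for its high edge betweenness.

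Among mitochondrial energy genes, 8 of 49 subunits of oxidative phosphorylation and 4 of 18 tricarboxylic acid cycle genes were called, all higher. All 49 measured subunits of oxidative phosphorylation had a positive change in group 4, with a median of 0.15, against 44 positive and a median of 0.05 in group 2. For 18 of the 49 every day 14 rat of group 4 lay above every day 4 rat, where this held for 3.12% of all genes. The 8 that rose were led by Uqcrc1 of complex III (0.31, adjusted p = 0.0332) and Ndufv2 of complex I (0.25). The count was 5 after quantile normalisation again, 14 in the robust fit and 24 in the fit over all 49 arrays. It was 7 without day 4 rat 3, 6 without day 14 rat 2, and 1 to 5 without any other single rat. Of the tricarboxylic acid cycle list, 17 of 18 genes were positive in group 4 and 15 in group 2. Mdh1, the cytosolic malate dehydrogenase, led the 4 called genes at 0.44 (adjusted p = 0.00692), beside 0.20 in group 2. The calls of Ogdh (0.23), Sdhb (0.21), Suclg2 (0.19) and Ndufv2 were lost in 7 to 9 of 10 fits without 1 rat.

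**Figure D3:**
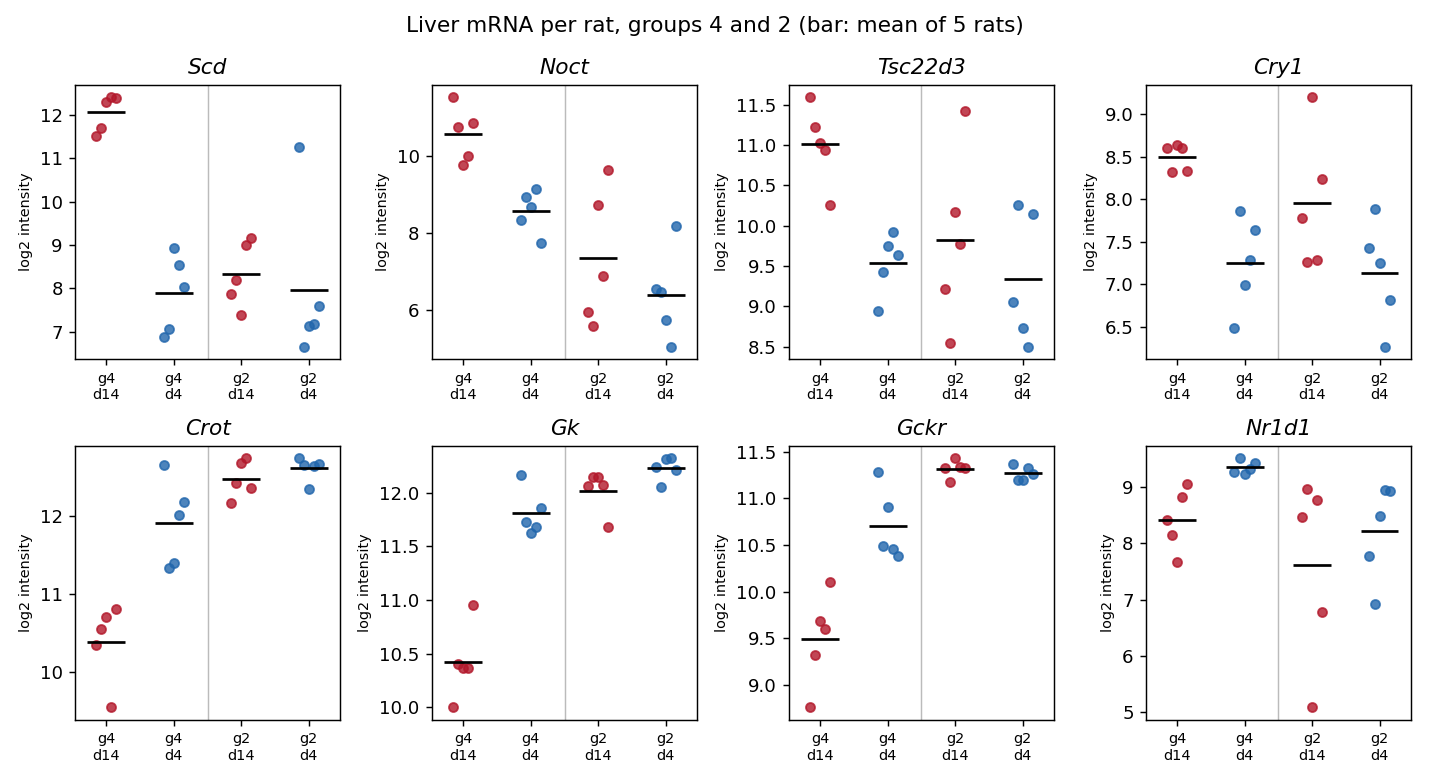
Log2 intensity of 8 genes in every rat of groups 4 and 2 (vertical axes), by group and day (horizontal axes), with the mean of 5 rats as a bar. The 8 genes were picked from those called in group 4, which favours days that are apart there. In group 4 the days are apart for all 8 genes, and in group 2 they overlap for all 8. Over all genes, the days of group 2 were apart for only 1.06% (day 14 above) and 0.478% (below).

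Several genes that follow the clock or glucocorticoids rose in group 4. Noct, the circadian gene nocturnin, was at 11.54, 10.76, 9.78, 10.01 and 10.87 at day 14, against 8.33, 8.93, 8.67, 9.16 and 7.75 at day 4. The days did not overlap, and the rise was 2.03 (SE 0.33, adjusted p = 0.0147, limma). The means of group 2 were 7.36 at day 14 and 6.39 at day 4, so that its difference of 0.96 had the same sign at a lower level. Of 15 clock genes, 5 rose and 1 fell. The median change of the 15 was 0.07 in group 4 and 0.09 in group 2, with 9 and 10 genes positive. Cry1, a repressor of the clock, was at 8.60, 8.32, 8.64, 8.61 and 8.34 at day 14, against 6.49, 7.86, 6.99, 7.29 and 7.64 at day 4. Its day 14 values were close together above the scattered day 4 values, with a rise of 1.25 (SE 0.21, adjusted p = 0.0162) beside 0.82 (SE 0.38) in group 2. The repressors Per1 and Per2 rose by 0.99 (adjusted p = 0.0300) and 0.72 (adjusted p = 0.0965), beside 0.09 and 0.40 in group 2, and the call of Per2 was lost in 7 of 10 fits without 1 rat. The activator gene Rora rose by 0.38, but its other, dimmer probe set showed -0.14, and the mean of both gave 0.12 with no call. Nr1d1, which encodes the repressor REV-ERBα, was at 8.41, 8.15, 7.67, 8.82 and 9.05 at day 14, against 9.27, 9.51, 9.22, 9.32 and 9.42 at day 4. It fell by 0.93 (SE 0.21, adjusted p = 0.0412) with no overlap, but it was not called in the fit over all 49 arrays (adjusted p = 0.368), and group 2 showed -0.60 with wide scatter. Nfil3, a repressor driven by the clock, rose by 1.06 (SE 0.15, adjusted p = 0.00588), beside 0.05 in group 2.

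Tsc22d3, which encodes the glucocorticoid-induced leucine zipper protein, was at 11.59, 11.22, 11.03, 10.94 and 10.25 at day 14, against 8.94, 9.43, 9.75, 9.92 and 9.63 at day 4. The lowest day 14 rat, rat 5, was still above the highest day 4 rat, and Tsc22d3 rose by 1.47 (SE 0.23, adjusted p = 0.0121, limma), beside 0.49 in group 2. Of 16 glucocorticoid-responsive genes only Tsc22d3, Per1 and Ddit4 rose (the last by 0.77, with its call lost in 7 of 10 fits without 1 rat), and none fell. The median change of this list was 0.21 in group 4 and 0.23 in group 2, with 13 and 10 genes positive. Of 16 insulin and FoxO genes, Igfbp1, a binding protein that insulin represses, rose by 0.92 (adjusted p = 0.0856), beside -0.41 in group 2, and Sesn1 rose by 0.42, with calls lost in 7 and 5 of 10 fits without 1 rat.

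Chaperones of the cytosol and mitochondria shared 1 direction, with 7 of 18 called higher, none lower and all 18 above 0, against 5 above 0 in group 2. The median was 0.28 in group 4 and -0.04 in group 2. Hspa1a, the inducible HSP70 gene, was at 9.34, 8.53, 8.87, 8.47 and 7.29 at day 14, against 6.69, 6.87, 6.88, 8.13 and 7.03 at day 4. Day 14 rat 5 and day 4 rat 4 made the days overlap, and Hspa1a rose by 1.38 (SE 0.35, adjusted p = 0.0652, limma), beside 0.01 in group 2, with its call lost in 8 of 10 fits without 1 rat. Hsph1, an HSP110 partner of HSP70, rose by 0.88 (adjusted p = 0.0511), the HSP90 partner gene Chordc1 by 0.68 (adjusted p = 0.0277) and the HSP40 gene Dnajb1 by 0.57 (adjusted p = 0.0242), beside -0.17, -0.11 and 0.00 in group 2. The count of 7 fell to 2 without day 4 rat 1, to 3 without day 14 rat 1, rat 3 or rat 4, and to 4 without day 14 rat 2 or day 4 rat 2 or rat 3. Of 24 genes of folding in the endoplasmic reticulum, none was called, but 20 were above 0 in group 4, against 9 in group 2. Their median was 0.10 in group 4 and -0.03 in group 2.

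The promoters of Hsph1 and Chordc1 are shown because GAANNTTC, a pair of inverted half-sites of the heat shock element, was searched for in the chaperone promoters. The window, source and build are as above, both lie on the plus strand, at chr12:10427118-10427417 for Hsph1 and chr8:23650571-23650870 for Chordc1, and each match is in capitals.
Hsph1: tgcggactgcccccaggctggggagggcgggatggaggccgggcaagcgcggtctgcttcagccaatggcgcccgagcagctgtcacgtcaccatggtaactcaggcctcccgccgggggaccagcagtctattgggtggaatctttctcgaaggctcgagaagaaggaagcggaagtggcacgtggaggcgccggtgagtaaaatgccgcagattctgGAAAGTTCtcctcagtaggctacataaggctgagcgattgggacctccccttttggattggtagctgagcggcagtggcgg
Chordc1: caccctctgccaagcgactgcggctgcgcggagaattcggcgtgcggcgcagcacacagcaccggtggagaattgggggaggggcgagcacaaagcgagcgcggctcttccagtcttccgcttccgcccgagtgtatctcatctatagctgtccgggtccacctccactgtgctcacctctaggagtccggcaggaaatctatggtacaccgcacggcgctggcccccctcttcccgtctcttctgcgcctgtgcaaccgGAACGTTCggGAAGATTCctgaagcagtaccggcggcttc
The match of Hsph1 began 31 bases before the gene start, and the 2 matches of Chordc1 lay after it. Of the chaperone promoters in the table, 10 of 16 held a match (62.5%), and of those of genes that rose 4 of 6 (66.7%), against 8.34% of all promoters. The motif reads the same on both strands, and the promoters of Hspd1 and Hspe1 share sequence because these genes start next to each other in opposite directions.

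**Figure D4:**
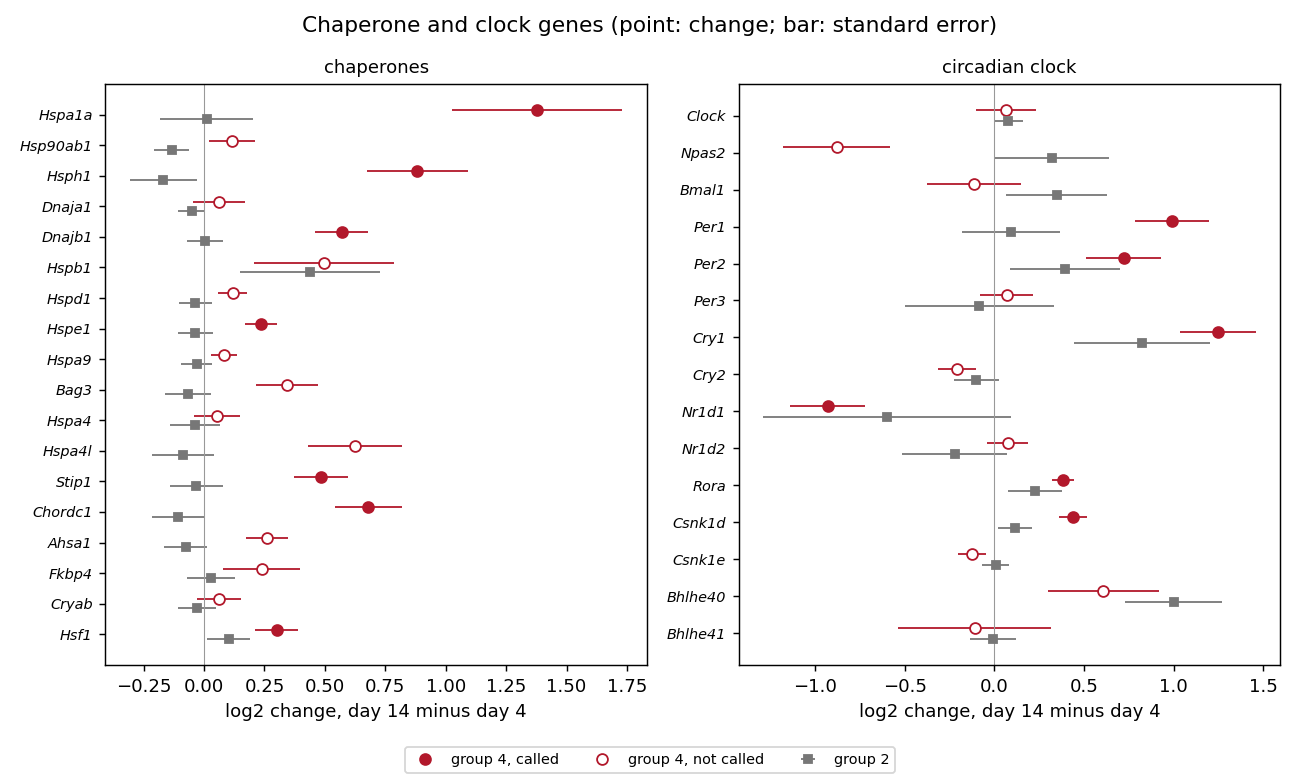
Log2 change between day 14 and day 4 (horizontal axes) for 18 chaperone genes (left) and 15 clock genes (right), with 1 SE of the fit as the bar. Filled red circles were called in group 4, open ones were not, and grey squares are group 2. The chaperones lie to the right of 0 in group 4 and around 0 in group 2, whereas the clock genes lie on both sides in both groups.

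Other large rises included Zfp354a, a zinc finger repressor, which was at 12.58, 11.88, 11.80, 12.08 and 11.04 at day 14, against 8.38, 10.07, 10.90, 9.99 and 9.58 at day 4. The days were apart only by the gap between day 14 rat 5 and day 4 rat 3, and the change was 2.09 (SE 0.40, adjusted p = 0.0231, limma), beside 0.73 in group 2. Cebpb, a transcription factor of gluconeogenesis and the acute phase, was at 12.39, 11.93, 11.56, 11.54 and 11.37 at day 14, against 10.31, 10.94, 10.79, 10.55 and 10.48 at day 4. It rose by 1.15 (SE 0.18, adjusted p = 0.0125) with no overlap, beside 0.27 in group 2. In the list of 24 integrated stress response genes, Cebpb, Ddit4 and Ddit3 (0.39, with its call lost in 7 of 10 fits without 1 rat) rose, and 2 genes fell, of which Atf5 fell by 0.85. Alas1, the rate-limiting enzyme of haem synthesis in liver, was at 12.64, 11.90, 11.98, 12.54 and 12.19 at day 14, against 10.95, 11.01, 11.26, 11.31 and 10.82 at day 4. The days did not overlap, and Alas1 rose by 1.18 (SE 0.15, adjusted p = 0.00366), beside 0.06 in group 2. The iron hormone gene Hamp rose by 1.05 (adjusted p = 0.0582), beside 0.86 in group 2.

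Among enzymes of detoxification, Sult2a6, a hydroxysteroid sulfotransferase, rose by 1.78 (SE 0.40, adjusted p = 0.0412, limma), Adh7, an alcohol and retinol dehydrogenase, by 1.35 (SE 0.18, adjusted p = 0.00484) and Ugt2b34l1, a glucuronosyltransferase, by 1.07 (SE 0.13, adjusted p = 0.00287). The day differences of group 2 were -0.82 for Sult2a6, -0.21 for Adh7 and 0.28 for Ugt2b34l1. Adh7 was dim, at 4.17 to 4.95 at day 4 of group 4, where the 20th percentile of all genes was 5.31. At day 4 of group 2 it ranged from 4.64 to 7.02. Cyp3a9, Cyp1a1 and Cyp4b1 rose by 0.92, 0.55 and 0.46 as the called members of 35 cytochrome P450 genes, where 5.47% of all genes were called. In this list 17 of 35 genes were positive, with a median of -0.01. The call of Cyp1a1 was lost in 8 and that of Cyp4b1 in 4 of 10 fits without 1 rat. That of Cyp3a9 was lost in 1 of 9 processing alternatives. Sult1c2, another sulfotransferase, was at 8.50, 6.92, 7.55, 7.81 and 8.37 at day 14, against 10.43, 10.80, 8.97, 9.30 and 9.82 at day 4. The days did not overlap, and Sult1c2 fell by 2.03 (SE 0.37, adjusted p = 0.0210), beside -0.14 in group 2. Kynu, the kynureninase of tryptophan breakdown, was at 9.79, 10.39, 10.77, 9.92 and 10.87 at day 14, against 12.33, 11.40, 11.77, 11.74 and 11.37 at day 4. It fell by 1.37 (SE 0.23, adjusted p = 0.0158) with no overlap, beside -0.08 in group 2. Of 32 amino acid breakdown genes, Kynu and Agxt (a fall of 0.75) were lower, and Got1 and Sdsl (0.38) were higher, where 5.47% of all genes were called. In this list 23 genes were positive in group 4 and 30 in group 2, with medians of 0.10 and 0.22. The 15 largest rises without overlap of the days were completed by Epha3, Clybl and Prelid2, between 1.11 and 1.22. Epha3 was dim as well, at 4.64 to 5.49 at day 4 of group 4, and its other probe sets showed 0.84 and 0.35. The 15 largest falls were completed by Fabp7, Poteml2, Abhd2, Hdhd3, Tnfaip2, Plcxd2, Mreg and 1 gene without an assigned name, between -1.94 and -0.94.

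Of 54 lists of pathways and cell types, 12 held no called gene, among them the proteasome (33 measured), cytosolic ribosomal proteins (37), the urea cycle (9), ketone body enzymes (5) and immediate early genes (19). With 5.47% of all genes called, lists of these sizes would hold few calls at that share. The lack of calls therefore does not show that these genes were unchanged. Of 22 acute phase and carrier proteins, Hamp rose, the acute phase gene Lbp fell by 0.50, and A2m was called lower at -0.66 (adjusted p = 0.0877), a call lost in 8 of 10 fits without 1 rat and in the fit over all 49 arrays among others (adjusted p up to 0.56). The thyroxine carrier gene Serpina7 fell by 2.19 on the log2 scale. It was at 8.92, 6.29, 6.15, 9.14 and 7.46 at day 14, against 10.68, 9.75, 9.83, 9.78 and 8.85 at day 4, with overlapping days (SE 0.57, adjusted p = 0.0690, limma). Its day difference in group 2 was -0.30, and its call was lost in 7 of 10 fits without 1 rat. The globin gene Hbb was at 11.79, 12.26, 12.30, 12.07 and 13.16 at day 14, against 13.31, 13.37, 13.65, 12.94 and 13.50 at day 4. Only day 14 rat 5 reached the day 4 range, and Hbb fell by 1.04 (SE 0.22, adjusted p = 0.0320), beside -0.08 in group 2.

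The difference between the day differences of groups 4 and 2 was called for 19 genes (0.134% of 14217, limma, 20 rats), 7 more positive and 12 more negative in group 4. All 19 were also called within group 4. The largest was Lox, a crosslinking enzyme of collagen, at 6.09, 6.39, 7.0, 7.50 and 7.88 at day 14 of group 4, against 8.52, 9.01, 7.73, 9.39 and 9.98 at day 4. In group 2 it was at 8.56, 9.43, 10.38, 10.40 and 8.83 at day 14, against 8.33, 8.46, 9.38, 8.34 and 7.30 at day 4. Lox fell by 1.95 in the restricted rats and had a day difference of 1.16, not called, in the unrestricted rats, and these differed by -3.11 (SE 0.64, adjusted p = 0.0802). It was the 1 called gene of 15 stellate cell and fibroblast markers, of which 12 were positive in group 4, with a median of 0.29.

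Among the other falls that differed from group 2, Gk differed by -1.18 (SE 0.19, adjusted p = 0.0523, limma), Apoa1 by -0.61 (SE 0.10, adjusted p = 0.0523), Galt by -0.89 (adjusted p = 0.0661), Gckr by -1.26 and Kynu by -1.30. The remaining negative differences from group 2 were those of Nedd9, Cela1, Mreg, Pla1a, Cacna1d and Trim2, between -1.41 and -0.75. Within group 4 alone, the changes of Nedd9, Cacna1d and Trim2 were -0.83, -0.49 and -0.56. The positive differences were those of Ehhadh, Prelid2, Mapre2, P4ha1, Slc35e4, Pdk1 and Trit1. Ehhadh was at 12.33, 12.44, 12.84, 12.17 and 11.90 at day 14 of group 4, against 11.52, 11.60, 11.08, 11.75 and 11.96 at day 4. In group 2 Ehhadh was at 12.43, 12.40, 12.82, 12.57 and 12.90 at day 14, against 13.13, 13.33, 12.99, 13.12 and 12.99 at day 4. Its days overlapped in group 4 and not in group 2, where it was not called. It differed by 1.24 (SE 0.23, adjusted p = 0.0650), with day differences of 0.75 in group 4 and -0.48 in group 2. Leaving out 1 of the 20 rats gave 0 to 89 called genes, with 89 without day 14 rat 5 and 79 without day 4 rat 3 of group 4. No gene was called without day 14 rat 2 or rat 4 of group 4 or without day 4 rat 2 or rat 4 of group 2, and none of the 19 was called in all 20 fits. No cholesterol synthesis, chaperone or clock gene was among the 19, although the difference from group 2 was positive for all 17 cholesterol genes and all 18 chaperones, with medians of 0.64 and 0.26.

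The other restricted groups shared no rats with group 4. In group 3, 1817 genes were called between the days (12.8%, 1269 or 8.93% higher and 548 or 3.85% lower), and in group 5, 954 (6.71%, 555 or 3.9% higher and 399 or 2.81% lower). In group 1, no gene was called (0%), with 2125 at an unadjusted p under 0.05. Of the 778 genes of group 4, 338 were called in the same direction in group 3, which is 43.4% of the calls of group 4 and 18.6% of those of group 3, and none in the opposite direction. In group 5 the shared genes numbered 219, 28.1% of the calls of group 4 and 23% of those of group 5, with 2 in the opposite direction. In all 3 restricted groups 87 genes were higher and 34 lower at day 14. In neither group 3 nor group 5 were 341 genes of group 4 called, which does not show that they differ between the groups.

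The 517 genes higher in group 4 had positive changes in group 3 for 94.6% of them and in group 5 for 89.7%, against 79.3% in group 2 and 72.9% in group 1. Over all genes the positive shares were 52.7% in group 3, 47% in group 5, 53.3% in group 2 and 58.3% in group 1. The 261 lower genes had negative changes for 79.7% in group 3, 90.4% in group 5, 59.4% in group 2 and 35.2% in group 1. The median of the higher genes was 0.27 in both group 3 and group 5, against 0.10 in group 2, and that of the lower genes was -0.16 in group 3 and -0.27 in group 5, against -0.03 in group 2.

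**Figure D5:**
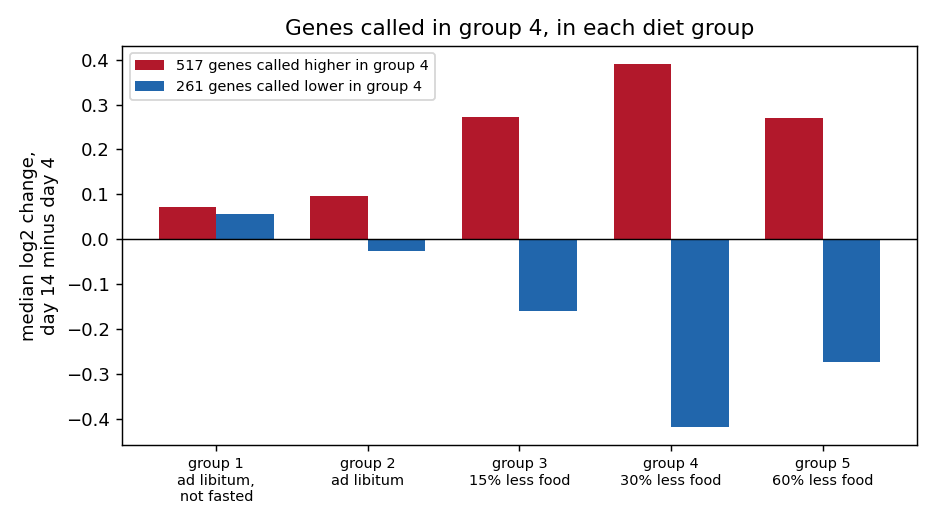
Median log2 change between day 14 and day 4 (vertical axis) in each diet group (horizontal axis) for the 517 genes called higher and the 261 called lower in group 4. The bars of group 4 are set by the choice of genes. The higher genes have medians of 0.27 in groups 3 and 5, 0.10 in group 2 and 0.07 in group 1.

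Set beside groups 3 and 5, the genes of group 4 fell into several patterns. Crot fell in all 3, by 1.52 in group 4, 1.45 in group 3 and 2.09 in group 5, and Gk fell by 1.39, 0.85 and 1.26 in the same order. Cry1 rose by 1.25 in group 4, 1.40 in group 3 and 1.21 in group 5. Of the cholesterol synthesis genes 15 were called higher in group 3 (median 0.76) and 3 in group 5 (median 0.61). In fatty acid synthesis 7 genes were called higher and none lower in group 3, whereas none was higher and 4 were lower in group 5. Of the chaperones, 1 was called higher and 1 lower in group 3, and 1 was called higher in group 5.

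The day difference of group 4 differed from that of group 3 for 15 genes (0.106%, limma), 5 more positive and 10 more negative in group 4. Scd had the largest, 3.64 (adjusted p = 0.0888), with a change of 4.16 in group 4 and 0.52 in group 3. Ugt2b34l1 differed by 1.09, with 1.07 in group 4 and -0.03 in group 3, and the cyclin gene Ccnd1 differed by -1.41, with -0.42 in group 4, where it was not called, and 0.98 in group 3. Of the 15 genes, 9 were called within group 4. Without day 14 rat 5 of group 4 there were 40, and without day 14 rat 3 or rat 4 of group 4, or day 14 rat 2 or day 4 rat 4 of group 3, there were 0. The day difference of group 4 against that of group 5 was called for no gene (0%, limma, smallest adjusted p = 0.176), with 1072 genes at an unadjusted p under 0.05. Without day 14 rat 3 of group 5 there were 17, without day 14 rat 1 of group 4 there were 8, without day 4 rat 1 of group 5 there were 7 and without day 14 rat 4 of group 5 there were 2.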

How the data were processed

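RNA of 49 rat livers was hybridised to Affymetrix arrays, 1 array per rat. The authors deposited intensity values that they had normalised by RMA (Affymetrix Expression Console, affy 1.38.1 and R 3.0.1 are named in the submitters' processing notes), as whole numbers for 31042 probe sets. Rounding sets steps of 0.17 on the log2 scale at the lowest intensity (8) and 0.02 at the median (83), and no depth applies to arrays, whose number limits the precision. The deposited values were taken to log2. The 20826 probe sets with 1 gene symbol gave 14217 genes, each read from its brightest probe set on average. Probe sets of near-identical genes (Hspa1a, Sult2a6, Ugt2b34l1, Hbb) may read their copies too. Groups and days came from the labels, and rats are numbered in accession order. limma 3.58.1 in R 4.3.3 (lmFit, eBayes, no covariates) tested each contrast on the rats of the groups compared, 2-sided, with Benjamini-Hochberg adjustment over all genes and a call at an adjusted p under 0.1. The methods used another model (EBarrays), not used here. Named genes are the 15 largest rises and 15 largest falls among called genes whose days did not overlap, the 10 largest differences from group 2 in each direction among called genes, up to 4 leading called members of each list, and the hub and other key genes of the study's network. A few others (such as Jam3, Srebf1 and the genes that differed from group 3) were named after their values were seen. The members and lists were chosen with earlier results of these data known. Simulated data with known changes were used to check the fit. Alternatives were other thresholds, minimum folds, probe set rules, scalings, weights, a robust fit, a fit of all arrays, and leaving out each rat.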

Additional observations from a re-analysis of the deposited data

Results flagged for a closer look

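In 9 of 172 groups of 5 rats (86 genes at 2 days of group 4), 5.23%, the outermost rat stood apart from the others by more than 0.71 of the whole range, where chance alone gives about 1 in 20. At day 14 these were Atf5, lowest in rat 1 at 10.53 with the nearest rat at 11.19 (ratio 0.719), Kcnh1, lowest in rat 4 at 6.07 and 6.39 (0.766), and Tbcel, lowest in rat 2 at 9.02 and 9.27 (0.817). Also at day 14, Mreg was highest in rat 5 at 11.34 and 10.85 (0.715), Nedd9 was highest in rat 5 at 8.89 and 8.18 (0.763), and P4ha1 was highest in rat 3 at 9.82 and 9.49 (0.822). At day 4, Gyg1 was highest in rat 2 at 8.76 and 8.60 (0.799), Hspa1a was highest in rat 4 at 8.13 and 7.03 (0.76), and Trim2 was lowest in rat 3 at 8.98 and 9.16 (0.715).

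The day difference of group 4 exceeded that of group 2 for Ehhadh (1.24), Prelid2 (1.08), Mapre2 (0.84), P4ha1 (0.77), Slc35e4 (0.55), Pdk1 (0.52) and Trit1 (0.44), by limma's test of the difference. It was below that of group 2 for Lox (-3.11), Nedd9 (-1.41), Kynu (-1.30), Gckr (-1.26), Gk (-1.18), Cela1 (-0.92), Mreg (-0.91), Pla1a (-0.89), Galt (-0.89), Cacna1d (-0.88), Trim2 (-0.75) and Apoa1 (-0.61).

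The day difference of group 4 exceeded that of group 3 for Scd (3.64), Ugt2b34l1 (1.09), Dapk1 (1.05), Polg2 (0.83) and Tra2b (0.41). It was below that of group 3 for Ccnd1 (-1.41), Kcnh1 (-1.12), Stmn1 (-0.91), Cela1 (-0.81), Abcc2 (-0.80), Hycc2 (-0.77), Pck2 (-0.65), Slc25a10 (-0.61), Tbcel (-0.61) and Itsn2 (-0.45). Cela1 is the 1 gene that differed from both groups.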

How the results depend on the processing

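The 778 genes of group 4 became 333 at an adjusted p under 0.05, 34 under 0.01, 190 and 55 with a fold of at least 1.5 and 2, and 1203 in 1 fit of all 49 arrays, of which 673 were among the 778. Between 727 and 976 were called under the other processing alternatives and 329 to 796 without 1 rat. In group 2 the 1 call became 39 in the fit of all arrays and 0 at an adjusted p under 0.01, with either minimum fold or after quantile normalisation, and 0 to 3 without 1 rat. The 19 differences from group 2 became 0 at an adjusted p under 0.05 or 0.01, 7 with a fold of at least 2, 35 in the fit of all arrays, 29 without dim genes, 39 after quantile normalisation, 33 in the robust fit and 0 to 89 without 1 rat. The 15 differences from group 3 became 2 at an adjusted p under 0.05, 0 under 0.01, 5 in the fit of all arrays and 0 to 40 without 1 rat. The 0 differences from group 5 became 32 in the fit of all arrays and 0 to 17 without 1 rat. Stricter thresholds and folds lower counts by construction, and for the other shifts the cause was not tested. Of the 130 genes that the naming rule gave and that were called in group 4, not all of them described above, 82 were called in every fit without 1 rat and 95 under every processing alternative, and no direction of these reversed. Among the 30 largest changes, Hdhd3 was lost in 1 and the unnamed gene in 3 of the fits without 1 rat. No paired analysis was possible because every rat has its own number and was killed at 1 day. Dim genes lie near the background of the arrays, so small changes there are poorly measured.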
